A study of Mus musculus with 6 samples.

Results

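The myelin protein genes examined here were Mbp, Mog, Mag, Mobp, Cnp, Cldn11, Mal, Opalin and Ermn. They were chosen by symbol from the gene list of the deposited matrices, and all 9 were found among its 32285 genes. The study took cortex and subventricular zone from mice of 8 to 12 weeks and read single cells by 10x Genomics 3′ counting, in which each unique molecular identifier (UMI) stands for 1 captured RNA molecule. Endothelial cells were sorted as CD31+ and Glast-, and neural stem and progenitor cells as Glast+ and CD31-, both from CD45- cells. The 3 genotypes were Cx43flox/flox, called control below, Cx43GlastiKO and Cx43ECiKO, whose titles carry the names Glast and Vecad, and each had 2 libraries that the labels call biological replicates. Cx43, or connexin 43, is the gap junction protein encoded by Gja1. The sources used here do not state how many mice made each suspension or how and when deletion was induced.

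Myelin is the stack of membrane that oligodendrocytes wrap around axons. Its proteins divide by place: Mbp, a cytoplasmic protein, and Mobp hold the compacted cytoplasmic faces together. Mag sits on the innermost wrap facing the axon and Mog on the outermost surface. Cnp keeps cytoplasmic channels open between the layers, Cldn11 forms the tight junctions of the sheath, and Mal is a proteolipid of membrane rafts that takes part in sorting membrane cargo. Opalin is a glycoprotein of the oligodendrocyte membrane, and Ermn is a cytoskeletal protein of mature oligodendrocytes. Il33 and Klk6, which encode a nuclear cytokine and a secreted protease, are expressed by different mature oligodendrocytes.

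In GENCODE M21 (mm10), all 9 genes were annotated as protein coding. Mog lies on the minus strand at chr17:37010743-37023398, Mag on the minus strand at chr7:30899176-30914873, and Mobp on the plus strand at chr9:120149707-120181484. Cnp lies on the plus strand at chr11:100574904-100591729 and Cldn11 on the plus strand at chr3:31149920-31164324. Mal occupies chr2:127633226-127656695, Opalin chr19:41061710-41077113 and Ermn chr2:58045113-58052864, all on the minus strand. Cnp overlaps Dnajc7 and Ermn overlaps Galnt5, both on the opposite strand, so that an assignment to strand decides to which gene a read in the overlap is given and their counts are uncertain to that extent. The Mobp model also overlaps the gene model Gm38642 on its own strand.

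The sequences just before the start of 4 members are shown because these genes differed between the oligodendrocyte states described next, Opalin and Mal in one direction and Mobp and Ermn in the other. RefSeq (GRCm38.p6) gave a start for 8 of the 9 members. Each run is the strand of the gene from 5′ to 3′ over 250 bases before that start, and the Mobp run ends after 215 bases, where the GENCODE gene model begins. Capitals mark matches to the letters ACAAAG, a SOX motif, or CTGGCAC, a MYRF motif, on either strand.
Opalin (chr19:41077114-41077363, minus strand): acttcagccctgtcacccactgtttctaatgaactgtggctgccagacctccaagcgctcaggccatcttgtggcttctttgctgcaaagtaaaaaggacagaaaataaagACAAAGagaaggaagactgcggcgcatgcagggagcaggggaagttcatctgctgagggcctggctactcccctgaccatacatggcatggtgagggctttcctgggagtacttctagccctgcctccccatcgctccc
Mal (chr2:127656696-127656945, minus strand): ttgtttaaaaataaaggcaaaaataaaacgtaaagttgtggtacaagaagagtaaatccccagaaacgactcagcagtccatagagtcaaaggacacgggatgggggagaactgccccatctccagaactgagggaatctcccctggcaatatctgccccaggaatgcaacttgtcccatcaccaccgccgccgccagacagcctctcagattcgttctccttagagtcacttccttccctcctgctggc
Mobp (chr9:120149492-120149706, plus strand): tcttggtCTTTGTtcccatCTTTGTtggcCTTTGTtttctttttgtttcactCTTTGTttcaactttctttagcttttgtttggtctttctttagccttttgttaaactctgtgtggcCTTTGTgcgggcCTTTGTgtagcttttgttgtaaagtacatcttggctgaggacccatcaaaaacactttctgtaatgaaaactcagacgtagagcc
Ermn (chr2:58052865-58053114, minus strand): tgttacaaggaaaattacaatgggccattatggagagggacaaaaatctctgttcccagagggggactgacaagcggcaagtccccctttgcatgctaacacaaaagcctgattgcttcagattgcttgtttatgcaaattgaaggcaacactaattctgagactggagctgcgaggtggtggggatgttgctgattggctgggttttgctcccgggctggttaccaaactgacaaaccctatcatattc
The SOX letters occurred once before Opalin, 6 times before Mobp, all on the opposite strand, and not before Mal or Ermn in these windows. Over all 8 members they occurred before 4 (Mag, Mobp, Cnp and Opalin) and the MYRF letters before 2 (Mag and Cnp). Of all 32851 promoter windows of the same length, 16.5% held the SOX letters and 4.19% the MYRF letters. A match is a description of the letters and not of binding, and the matches did not divide the genes that were higher in one state from those higher in the other.

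The 6 libraries held 571 to 2674 barcodes each, the same numbers as the cell estimates in the labels, and 1735247 to 14859187 UMIs, of which 6249 cells in named or numbered clusters were used. They divided by number and not by genotype: libraries numbered 1 held 388 to 681 endothelial-like cells and 0, 0 and 1 oligodendrocyte-like cells. Those numbered 2 held 20 to 66 endothelial-like, 169 to 412 astroglial-like and 442, 595 and 1409 oligodendrocyte-like cells in control, GlastiKO and ECiKO. The stated sort names no gate for oligodendrocytes. Clusters were made and named without the 9 members, from markers that include Sox10, Olig1, Aspa and Ugt8a, and all 14 oligodendrocyte markers were detected in each of the named clusters of that class. The library labelled ECiKO 2 was shallow, with a median of 787 UMIs a cell against 8028 in control 2 and 10825.5 in GlastiKO 2, and held a further 578 cells in clusters left unnamed. Gja1 was not lower under either knockout label: endothelial-like cells held 69.1 and 79.6 CPM, meaning UMIs of the gene per 1000000 UMIs of the class, in control, 135 and 131 in GlastiKO and 222 and 159 in ECiKO, and astroglial-like cells 2551, 2514 and 2571 CPM in the libraries numbered 2. The labels do not say which piece of Gja1 was deleted, so 3′ counts may not test the deletion, and every genotype below is a label.

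Opalin and Mal were lower, and Mobp and Ermn slightly higher, in oligodendrocyte-like cells with Klk6 than in those with Il33, while Mbp, Mog and Mag did not pass the test. A cell was put in the Il33 state by at least 1 UMI of Il33 and 0 of Klk6, and in the Klk6 state by the reverse, so that no member took part in the choice. The Il33 state held 310, 416 and 635 cells and the Klk6 state 59, 77 and 59 in control 2, GlastiKO 2 and ECiKO 2. A further 55, 74 and 695 cells had no UMI of either gene and were in neither state. In ECiKO 2 the median of those cells was 678 UMIs. Summed UMIs per state were compared within the 3 libraries by edgeR's quasi-likelihood test with the library as a block, and p-values were adjusted by Benjamini-Hochberg over all 9409 genes tested. Of these genes 21.1% were called, 11.0% higher and 10.1% lower in the Klk6 state. Of the 9 members 6 were called, 2 higher and 4 lower. Log2 differences below are Klk6 minus Il33 ± SE from this fit, with 3 libraries behind each, while CPM are of all UMIs of the state.

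Opalin stood at 1453, 1676 and 1307 CPM in the Il33 state of control 2, GlastiKO 2 and ECiKO 2 and at 359, 345 and 106 CPM in the Klk6 state. The states did not overlap, and the log2 difference was -2.45 ± 0.086 (edgeR adjusted p = 3.29e-41). Among 3312 genes with at least 50 CPM, Opalin was the number 6 from the lowest log2 difference. Its Il33-to-Klk6 ratio was 4.05 (95% interval from counting alone 3.68 to 4.47) in control 2, 4.86 (4.48 to 5.28) in GlastiKO 2 and 12.3 (9.61 to 16.1) in ECiKO 2. The ratio was thus highest in ECiKO 2, where 63 Opalin UMIs were counted in the Klk6 state and where the median cell held 976 UMIs in the Il33 state and 4448 in the Klk6 state. Cells with UMIs of both Il33 and Klk6, 18, 28 and 20 in number, lay between the states in every library, at 925, 1055 and 822 CPM of Opalin. So did cells with neither gene, at 928, 1013 and 1274 CPM. With 1 library of each genotype, the difference of the ratios between genotypes could not be tested. The level of the gene that set a state also differed between libraries. Klk6 stood at 425.5, 479.5 and 975.5 CPM in the Klk6 state of control 2, GlastiKO 2 and ECiKO 2. Il33 stood at 828.5, 716.3 and 1163.25 CPM in the Il33 state of the same libraries. Whether these levels bear on the Opalin ratios was not tested.

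The share of cells with an Opalin UMI differed in the same direction once depth was made equal. After each cell was thinned to 1000 UMIs, with its state kept, 72.5%, 77.9% and 75.2% of Il33-state cells and 27.1%, 28.6% and 10.0% of Klk6-state cells held one. Without thinning the shares were 99.0%, 99.8% and 74.3% against 72.9%, 77.9% and 30.5%. Thinning left out shallower cells, 4, 0 and 324 of the Il33 state and 0, 0 and 9 of the Klk6 state. For comparison, a Mog UMI was found in 74.5%, 80.0% and 74.6% of thinned Il33-state cells and in 81.4%, 83.1% and 76.0% of thinned Klk6-state cells. The libraries differed little for Mog, and the states overlapped.

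Mal stood at 8783, 9735 and 7568 CPM in the Il33 state and at 4836, 4931 and 3503 CPM in the Klk6 state of the same 3 libraries. Every Il33-state value was above every Klk6-state value, with a log2 difference of -1.04 ± 0.054 (edgeR adjusted p = 8.28e-30), among the lowest 50 of the 3312 genes. Within the libraries the Il33-to-Klk6 ratio was 1.82, 1.97 and 2.16. In cells with UMIs of both genes Mal stood at 5602, 6245 and 5786 CPM, again between the states in each library. With neither gene it stood at 7502, 7445 and 8054 CPM, the last of these above the Il33 state.

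The junction gene Cldn11 and the channel gene Cnp differed less. Cldn11 stood at 3301, 3307 and 2460 CPM against 2908, 2738 and 2299 CPM, lower with Klk6 in each library but overlapping between libraries, with a log2 difference of -0.25 ± 0.053 (edgeR adjusted p = 0.000118). Cnp stood at 4498, 5121 and 3859 CPM against 4150, 4677 and 3856 CPM, with a log2 difference of -0.15 ± 0.052 (edgeR adjusted p = 0.0336). The Cnp call was lost in 6 of 14 alternatives, with differences of -0.18 to -0.01 over all 14. It was -0.14 without control 2 (adjusted p = 0.268), -0.12 without GlastiKO 2 (0.371), -0.15 by DESeq2 (0.0903) and -0.01 in cells thinned to 1000 UMIs (0.987). In this thinned alternative the states were set again from the thinned counts, so its states do not hold the same cells as those of the shares above. The Cldn11 call was lost in 3, with differences of -0.28 to -0.16 over all 14: it was -0.21 without GlastiKO 2 (adjusted p = 0.0639), -0.16 with states by cluster (0.111) and -0.28 in thinned cells (0.434).

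Mobp and Ermn were higher in the Klk6 state. Mobp stood at 2093, 2592 and 2197 CPM in the Il33 state and at 2802, 3020 and 2876 CPM in the Klk6 state, without overlap, and its log2 difference was 0.28 ± 0.053 (edgeR adjusted p = 1.58e-05). Ermn stood at 2341, 2340 and 2465 CPM against 3027, 2965 and 3226 CPM, also without overlap, with a log2 difference of 0.31 ± 0.052 (edgeR adjusted p = 1.69e-06). In cells thinned to 1000 UMIs, with states set again from the thinned counts and 2179 genes tested, neither call was kept. Mobp came to -0.05 (edgeR adjusted p = 0.948), and Ermn to 0.40 (edgeR adjusted p = 0.130), above its value in all cells.

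The other 3 members were not called. Mbp stood at 3848, 3947 and 3778 CPM in the Il33 state and at 3961, 4324 and 3934 CPM in the Klk6 state (0.02 ± 0.052, edgeR adjusted p = 0.884). Mog stood at 1430, 1676 and 1182 CPM against 1541, 1698 and 1177 CPM (-0.02 ± 0.054, edgeR adjusted p = 0.891). Mag stood at 2994, 3130 and 2658 CPM against 3284, 3176 and 3079 CPM (0.06 ± 0.053, edgeR adjusted p = 0.518). Summed over the 9 members, the Il33 state held 30739, 33525 and 27474 CPM and the Klk6 state 26869, 27874 and 24057 CPM.

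**Figure D1:**
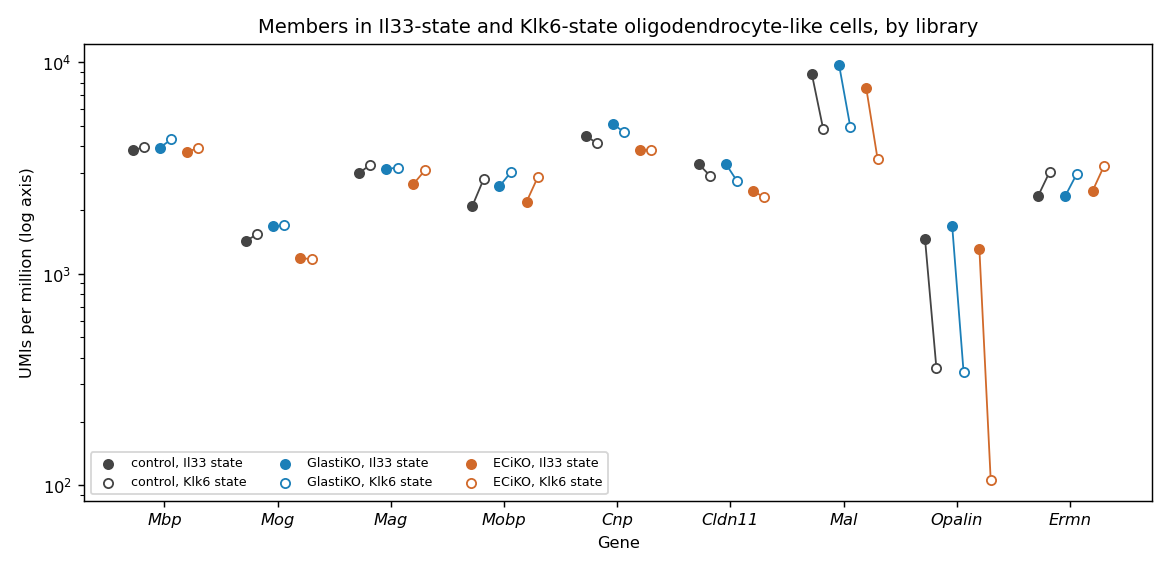
CPM (log axis) of each of the 9 genes in the Il33 state (filled) and the Klk6 state (open), 1 line for each library numbered 2. The Opalin and Mal lines fall in all 3 libraries, from 1307 to 1676 down to 106 to 359 for Opalin, and the Mobp and Ermn lines rise.

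Genes of other myelin functions did not move as one group between the states. Of 15 enzymes of myelin lipids, 11 were higher and 2 lower in the Klk6 state, with a median log2 difference of 0.58 against -0.01 over all genes tested and -0.02 over the 9 members. Ugt8a, which makes galactosylceramide, came to 0.58 (edgeR adjusted p = 1.40e-15) and the fatty acid hydroxylase Fa2h to 0.39 (4.00e-08), while the aspartoacylase Aspa came to -0.28 (6.61e-05). The desaturase Scd2 came to -0.09 and was not called (0.282). Of 20 other myelin membrane and junction proteins 10 were higher and 5 lower, with a median of 0.09. Among them the membrane glycoprotein gene Gpm6b came to 0.17 (edgeR adjusted p = 0.0113), Ndrg1 to 0.20 (0.00522) and the tetraspanin Tspan2 to -0.98 (8.84e-26).

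Of 11 transcription factors of the lineage, 0 were higher and 7 lower in the Klk6 state, with a median of -0.26. Olig1 came to -0.26 (edgeR adjusted p = 0.000429) and Nkx6-2 to -0.22 (0.00499), while Sox10 at -0.12 (0.205) and Myrf at -0.17 (0.0726) were not called. Of 10 genes of axon support and metabolism 5 were higher and 3 lower, among them the ferritin gene Fth1 at 0.40, the transferrin gene Trf at 0.64 and the prostaglandin D synthase gene Ptgds at -4.71, and Car2 at -0.09 was not called (edgeR adjusted p = 0.237). Among called genes of at least 50 CPM with 1 direction in all 3 libraries, the log2 differences farthest above 0 were those of Hopx (5.37), S100b (5.35), Uchl1 (4.51), Tln2 (3.55) and Anxa5 (3.53). Those farthest below 0 were Ptgds (-4.71), Adamts1 (-3.94), Hebp1 (-2.86), Cd9 (-2.83) and Prickle1 (-2.65), so Opalin at -2.45 lay just above them.

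Between genotypes, the levels in oligodendrocyte-like cells could be compared over 1 library each, those numbered 2, and no test was possible. No member moved by 1.5-fold over the whole class under either label. Ratios below are of CPM to control 2, with exact 95% intervals that cover counting error only. Among genes with at least 100 UMIs in the 2 libraries together, 1.90% passed 1.5-fold in either direction for GlastiKO and 2.50% for ECiKO, and 0 of the 9 members did in either.

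In GlastiKO 2 the ratios ran from 0.997 for Cldn11 to 1.18 for Mobp (1.16 to 1.20). The levels behind them were 3205 and 3195 CPM for Cldn11 and 2275 and 2685 CPM for Mobp in control 2 and GlastiKO 2. Mog, at 1449 and 1693 CPM, had a ratio of 1.17, Cnp, at 4422 and 5024 CPM, one of 1.14, and Opalin, at 1191 and 1354 CPM, one of 1.14. Mal came to 1.09 and Mbp, Mag and Ermn to between 1.00 and 1.03. The ratios were thus at or somewhat above 1 for all members.

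In ECiKO 2 most ratios were below 1, from 0.773 for Cldn11 (0.754 to 0.793), at 2479 CPM, to 1.06 for Ermn, at 2609 CPM. Mog had 1225 CPM and a ratio of 0.845, Cnp 3867 CPM and 0.875, Mal 6850 CPM and 0.875, Mag 2700 CPM and 0.882, and Opalin 1064 CPM and 0.893. Mbp, at 3794 CPM against 3918 in control 2, had 0.968 and Mobp 1.03. The class lay in different clusters in the 2 libraries: 633 and 602 of the 1409 cells of ECiKO 2 were in 2 shallow clusters, while 259 and 142 of the 442 cells of control 2 were in 2 deep ones. Within the deep cluster with Il33 the ECiKO ratio was 0.739 for Cldn11, 0.759 for Mog, 0.827 for Mal and 0.818 for Opalin, and within that with Klk6 0.779, 0.803, 0.763 and 0.567. In cells of at least 2000 UMIs the Opalin ratio was 0.774.

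Within the states Opalin was the member that passed 1.5-fold, in 1 of the comparisons. In the Il33 state 0 of 9 members passed 1.5-fold in either comparison, against 2.19% of genes for GlastiKO and 3.05% for ECiKO. In the Klk6 state 0 of 9 did for GlastiKO (2.73% of genes) and 1 of 9, Opalin, for ECiKO (4.88% of genes). That Opalin ratio was 0.295 (0.223 to 0.385), from 63 UMIs in 59 cells of ECiKO 2 and 447 UMIs in 59 cells of control 2. It was 0.263 in the 46 Klk6-state cells of ECiKO 2 with at least 2000 UMIs. With the Klk6 cells of a shallow cluster that was left unnamed it was 0.332 (0.261 to 0.418), from 87 UMIs in 190 cells, and over the whole deep cluster with Klk6, 74 cells of ECiKO 2, 0.567 (0.504 to 0.637). The value in the Il33 state was 0.899. Klk6 itself was higher in the Klk6 state of ECiKO 2, at 975.5 CPM, than in that of control 2, at 425.5 CPM. The cells compared were thus unlike in Klk6, and whether this bears on the Opalin ratio was not tested.

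**Figure D2:**
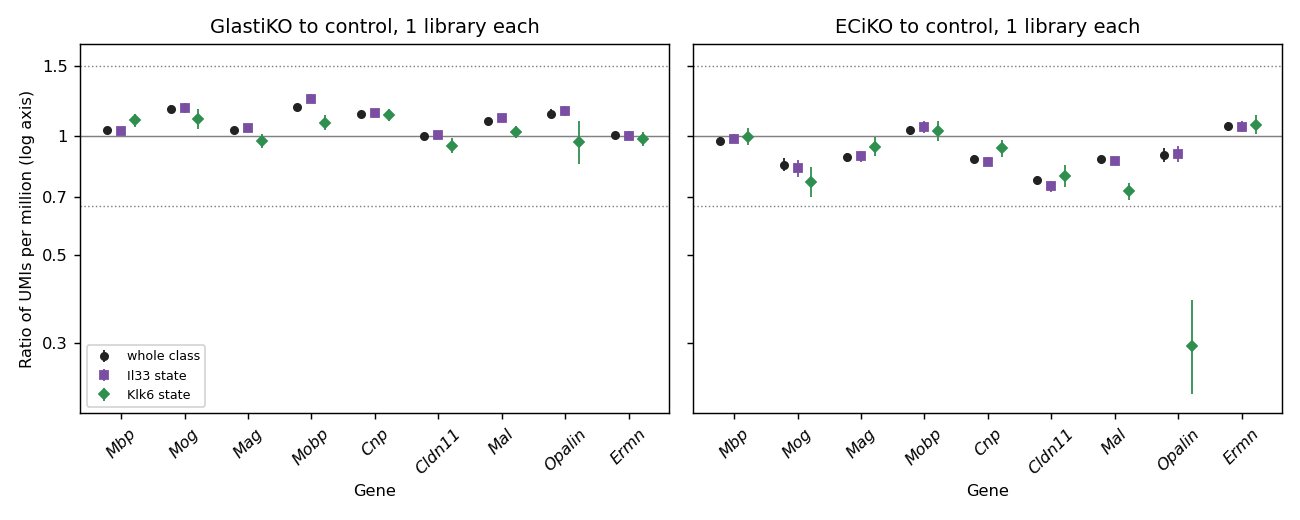
Ratio of CPM to control 2 (log axis) for each gene in GlastiKO 2 (left) and ECiKO 2 (right), over the whole class and in each state; bars are exact 95% intervals from counting alone and dotted lines mark 1.5-fold. Only Opalin in the Klk6 state of ECiKO 2, at 0.295, lies past a dotted line.

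Relative to oligodendrocyte-like cells, 1 gene stood highest in each of 2 classes: Mal in endothelial-like and Cnp in astroglial-like cells. Droplets also take up RNA set free by other cells. Each gene is therefore given as a percent of its level in the oligodendrocyte-like cells of the same library. Free RNA with the gene ratios of those cells would give 1 percent for all genes, but whether it kept those ratios was not tested. Members also differed in other classes. In choroid plexus-like cells of ECiKO 2 Mal came to 17.6% and Cnp to 13.9%, against 10.2% for the other 7 together. In those of GlastiKO 2 the values were 2.23%, 2.36% and 2.11%. Neither the cells nor the clusters were chosen on these genes, but cells of 1 library share their suspension, and no test was made between classes.

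In endothelial-like cells of the libraries numbered 1, which held at most 1 oligodendrocyte-like cell, Mal was found at 411, 530 and 437 CPM in control 1, GlastiKO 1 and ECiKO 1, from 963, 819 and 529 UMIs. Cnp stood at 8.54, 8.42 and 9.09 CPM, from 20, 13 and 11 UMIs, and each of the other 7 members had at most 4 UMIs in any of these libraries. Opalin had 0 UMIs in all 3, which allows up to 1.28 CPM in control 1. Mal thus made up 97.4%, 98.0% and 97.6% of the UMIs of the 9 members there, and 58.1%, 63.7% and 52.6% of the cells held one, at median depths of 3324, 3191 and 2771 UMIs. The pericyte-like cells of control 1 and GlastiKO 1, at median depths of 4631 and 4700 UMIs, held 0 Mal UMIs in 33 cells each, which allows up to 19.4 and 19.3 CPM.

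The endothelial-like cells of the libraries numbered 2 held Mal at 548, 686 and 557 CPM, from 62, 147 and 21 UMIs in 45, 66 and 20 cells. This was 7.01%, 8.05% and 8.13% of the oligodendrocyte level in the same libraries. The 7 members other than Mal and Cnp together stood at 0.352%, 0.401% and 1.14% of theirs, from 7, 16 and 7 UMIs. The percent for Mal was above that of the other 7 in every library, and the intervals from counting did not overlap.

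In astroglial-like cells it was Cnp that stood above the others. Cnp was at 125, 92.4 and 148 CPM in control 2, GlastiKO 2 and ECiKO 2, from 231, 198 and 55 UMIs in 408, 412 and 169 cells. This was 2.83% (2.48 to 3.22), 1.84% (1.59 to 2.11) and 3.83% (2.88 to 4.99) of its oligodendrocyte level, against 0.450% (0.380 to 0.530), 0.564% (0.493 to 0.643) and 1.98% (1.64 to 2.36) for the 7 members other than Mal and Cnp. Mal, at 23.3, 20.1 and 170 CPM, was at 0.298%, 0.236% and 2.48%. The members below Cnp were not alike. Mbp, among the 7, was at 0.678% (0.501 to 0.896) in control 2 and 0.737% (0.567 to 0.941) in GlastiKO 2, above Mal in both. In ECiKO 2 the interval of Cnp overlapped those of several single members, among them Mog, at 3.30% (1.84 to 5.44), and Mal (1.90 to 3.17). A Cnp UMI was found in 34.3%, 27.7% and 21.9% of the astroglial-like cells, and a Mog UMI in 2.21%, 4.85% and 5.33%, at median depths of 3753.5, 4545.5 and 944 UMIs.

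Cnp made up 55.0% and 42.5% of the members' UMIs in the astroglial-like cells of control 2 and GlastiKO 2, against 14.8% and 15.6% in their oligodendrocyte-like cells. In ECiKO 2 the shares were 23.2% and 14.4%, and the first of these rests on 1 cluster. A shallow cluster of 102 cells, with a median of 763 UMIs, held 205 of the 237 member UMIs and a sum of 2121 CPM, while the 2 deeper astroglial clusters of that library summed to 109 and 122 CPM. With a stricter cell filter the Cnp share of ECiKO 2 was 55.6%, and without the doublet call 57.7%. In ECiKO 2 Mal, with 63 UMIs, had a larger share of the members than Cnp, with 55, and the Cnp share there depended on which cells were kept.

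**Figure D3:**
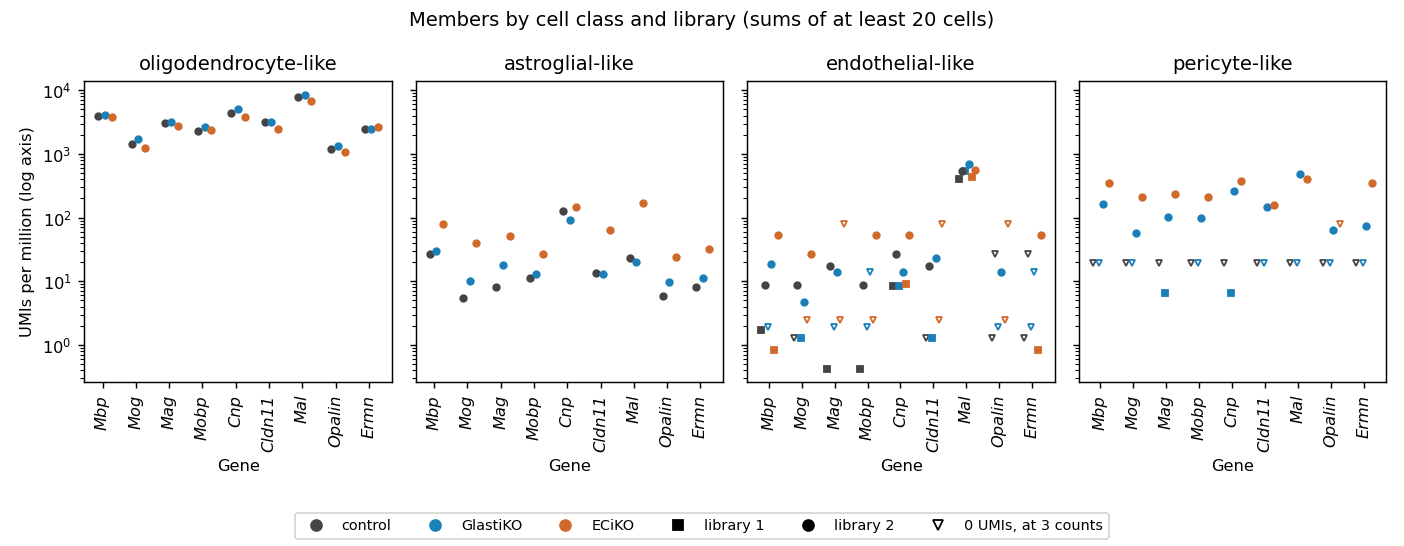
CPM (log axis) of the 9 genes in 4 cell classes, for every library with at least 20 cells of the class; squares are libraries numbered 1, circles those numbered 2, and open triangles mark 0 UMIs at the level of 3 counts. In endothelial-like cells Mal sits between 411 and 686 in all 6 libraries while no other gene with a UMI is above 53.0; the triangles of ECiKO 2, at 79.5, mark the limit set by its 20 cells.

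**Figure D4:**
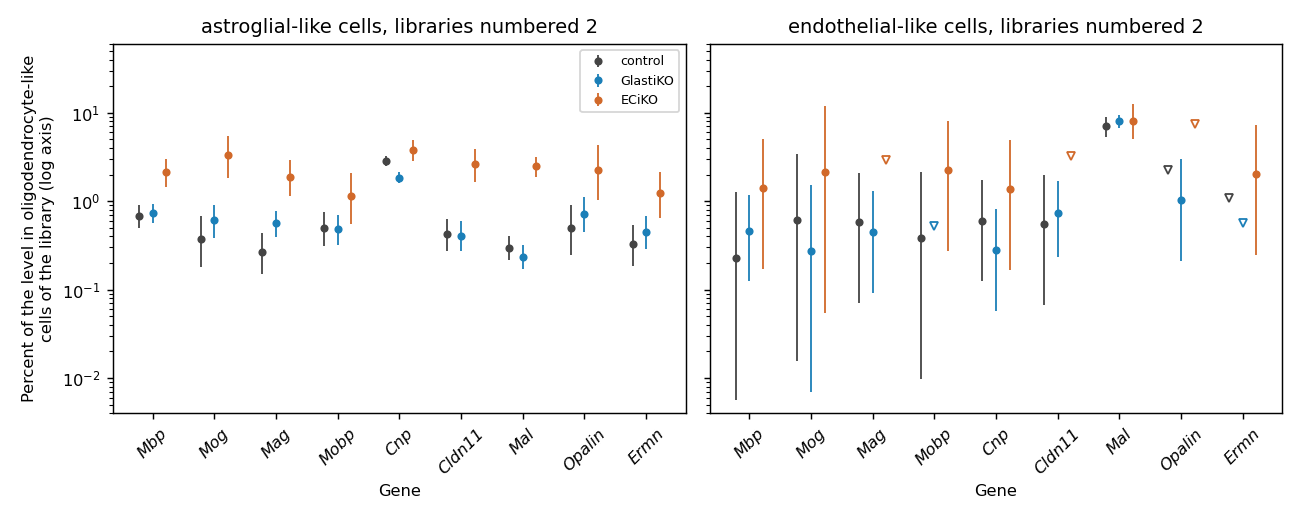
Level of each gene in astroglial-like (left) and endothelial-like (right) cells as a percent of its level in oligodendrocyte-like cells of the same library (log axis), with exact 95% intervals from counting; open triangles mark the limit of 3 counts where 0 UMIs were found. Cnp is highest at left, at 1.84% to 3.83%, and Mal at right, at 7.01% to 8.13%.

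No difference between genotypes was detected for the members in endothelial-like cells. Sums over the 6 libraries were compared by edgeR's quasi-likelihood test over 8492 genes, with 2 libraries a genotype. The low-count filter kept 2 of the 9 members, Mal and Cnp, and with edgeR 0 of these were called under either label, 0 had an unadjusted p under 0.05 and DESeq2 called 0. Of all genes 0.0942% were called for GlastiKO and 0.0118%, which is 1 gene, Gja1, for ECiKO, while 141 and 66 genes had an unadjusted p under 0.05 and DESeq2 called 0 genes in both. Gja1 was higher and not lower under the ECiKO label, at 222 and 159 CPM against 69.1 and 79.6 CPM in control. Mal had a log2 difference of 0.42 ± 0.28 for GlastiKO (edgeR adjusted p = 1.00) and -0.005 ± 0.30 for ECiKO (edgeR adjusted p = 1.00). With these SEs, neither difference of Mal could tell a change of 1.5-fold from none. For Cnp the differences were -0.09 ± 0.83 and 0.15 ± 0.87, too wide for this under both labels.

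The 2 kinds of library were also compared in endothelial-like cells, those numbered 2 against those numbered 1 with the genotype as a block. Of the 8492 genes edgeR called 0.259%, and 0 of the 2 members tested, neither of which had an unadjusted p under 0.05; DESeq2 called 12 genes and 0 members. Mal was not called, at 411, 530 and 437 CPM against 548, 686 and 557 CPM, a log2 difference of 0.23 ± 0.20 (edgeR adjusted p = 0.848), and neither was Cnp, at 1.30 ± 0.81 (edgeR adjusted p = 0.757). Mal was thus as high as 411 to 530 CPM in endothelial-like cells of libraries with 0 or 1 oligodendrocyte-like cells.

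Mal varied among endothelial clusters. Clusters were made without Mal, and over all libraries together it stood at 604 CPM (566 to 644) in the cluster led by Sema3g and Gkn3, genes of arterial endothelium. It stood at 478 CPM (449 to 509) in that led by Ndnf and Slc38a5 and at 364 CPM (330 to 401) in that led by Klf2, Ctla2a and Apold1, of which Klf2 and Apold1 are known to respond to flow. A shallow cluster, with a median of 1277 UMIs, had 270 CPM (231 to 313). By library the first stood at 471, 727 and 632 CPM, the second at 450, 532 and 413, the third at 308, 429 and 347 and the shallow one at 259, 281 and 239 CPM in control 1, GlastiKO 1 and ECiKO 1. The order was the same in the 3 libraries, but the first 2 clusters of control 1 lay within each other's counting error.

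Cells with a UMI of the arterial genes Bmx, Gkn3 or Sema3g and none of the venous genes Slc38a5, Nr2f2 or Ackr1 were set beside those with the reverse, a division chosen after the cluster values had been seen. Mal stood at 487, 823 and 714 CPM in the first and at 416, 466 and 414 CPM in the second in control 1, GlastiKO 1 and ECiKO 1. The first was higher in all 3 libraries, by least in control 1, where the counting intervals overlapped (429 to 551 and 378 to 457). Cells with UMIs of both kinds, 23, 12 and 14 in number, stood at 531, 705 and 477 CPM. Those with neither stood at 325, 432 and 339 CPM. Gkn3, Sema3g and Slc38a5 also lead clusters above, so the division was not independent of those clusters.

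A small cluster led by Plvap, a gene of fenestrated endothelium, and Igfbp3 was left unnamed, since its endothelial marker level lay under the limit for a name. It came almost wholly from control 1, where its 31 cells held 0 Mal UMIs among 170704. At the floor of 3 counts over those cells, 17.6 CPM, Mal was at least 23.4-fold lower than in the endothelial-like cells of control 1, at 411 CPM. With 1 library behind it, this cluster may be that library and not a cell type.

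**Figure D5:**
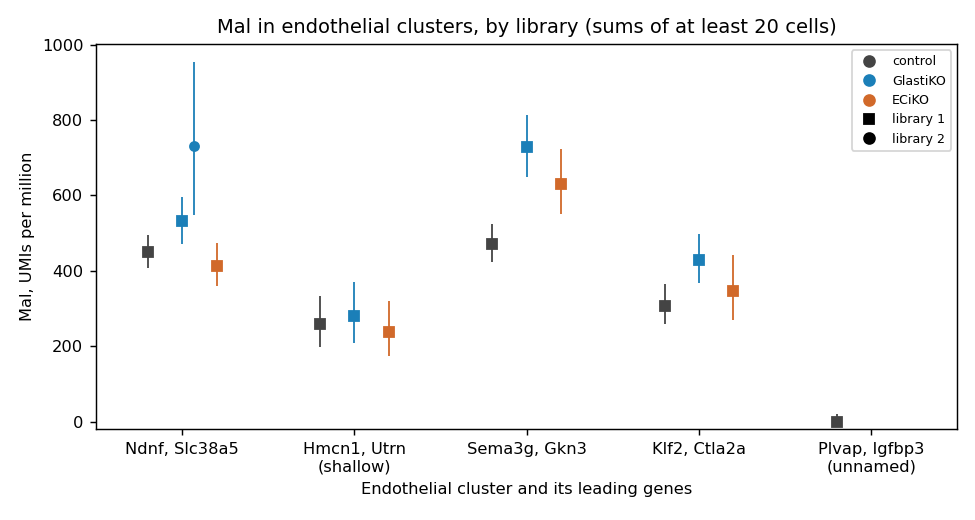
Mal in CPM by endothelial cluster and library, for sums of at least 20 cells, with exact 95% intervals from counting. The cluster led by Sema3g and Gkn3 lies at 471 to 727, the shallow cluster at 239 to 281, and the unnamed cluster led by Plvap at 0.

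Across 47 sums of cluster and library, each of at least 20 cells, the members followed one another closely apart from Mal. Pearson's r of a member's log2(CPM + 10) with the mean of the other members was 0.957 for Cnp, 0.958 for Opalin, 0.970 for Mbp and between 0.978 and 0.990 for Mog, Mag, Mobp, Cldn11 and Ermn. It was 0.775 for Mal, the gene also found in endothelial-like cells. Among 3241 other genes of at least 50 CPM in oligodendrocyte-like cells, the 5 whose pattern was most like the mean of the members were Evi2a (r = 0.987), Edil3 (0.984), Stmn4 (0.984), Bin1 (0.983) and Kcna1 (0.981). These correlations describe mainly which clusters hold oligodendrocytes, and the sums share libraries and depth, so no p is given.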

How the data were processed

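Single-cell RNA-seq matrices of 6 mouse libraries were used. Values are whole UMI counts per gene and barcode, as deposited by the authors. They were aligned to mm10 with Cell Ranger 5.0.0 per the labels' protocols and counted per the file headers; the submitters' processing notes name Cell Ranger 2.1.1 and Seurat 4. The members and gene lists were chosen with earlier results of these data known.

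Cells with at least 300 genes and at most 20% mitochondrial UMIs were kept (6323), and 50 doublets called by Scrublet were marked and left out with 24 cells of other types. Of all barcodes, 5 sequences occurred in more than 1 library. Counts were scaled to 10000 UMIs a cell and log-transformed, and 2000 variable genes without the members, 30 principal components and 15 neighbours gave Leiden clusters at resolution 1.0 (scanpy 1.11.5, leidenalg 0.10.2). A cluster was named from marker lists when at least 3 markers were each detected in at least 10% of its cells and its relative marker level reached 0.83, a limit set after the data were seen. Among its 10 leading genes, no other class was allowed more markers than the named one. The shallow cluster of 404 cells in ECiKO 2, led by genes that include Klk6, was left unnamed by this last condition alone.

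Counts were summed by library and class or state over at least 20 cells, filtered by filterByExpr, scaled by TMM and tested with edgeR 4.0.16 (R 4.3.3) at an adjusted p of 0.05, with DESeq2 1.42.0 as an alternative. The scripts were tested on simulated data. SE is the log2 difference divided by the square root of F. With 2 or 3 residual degrees of freedom, p-values rest mainly on the spread pooled over genes, and the 2 libraries of a genotype may differ for technical reasons.

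Shares and CPM have exact 95% intervals (Clopper-Pearson or Poisson) and ratios exact conditional binomial ones, all for counting error only; a count of 0 allows up to 3 counts. Besides all 9 members, the 4 most counted genes of each list, up to 5 called genes per direction and the 5 genes most like the members were named; 1 further gene of that rule is not reported here. The 3′ counts are not per length, so levels are not ranked between genes.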

Additional observations from a re-analysis of the deposited data

Results flagged for a closer look

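Summed UMIs of the 9 genes were also found in classes that the comparisons above do not use, above the level in control 2. Pericyte-like cells held 1450 CPM in GlastiKO 2 and 2281 CPM in ECiKO 2, against 45.95 CPM in control 2, from 5 UMIs in 18 cells. In GlastiKO 2, 261 of the 298 UMIs came from 1 cell of 35, and without the 2 cells with most member UMIs the sum was 76.4 CPM. In ECiKO 2 the 86 UMIs were spread over 11 of 23 cells. Choroid plexus-like cells held 701.5 CPM in GlastiKO 2, where 279 of 307 UMIs came from 1 cell and 59.4 CPM remained without the 2 highest cells, and 3405 CPM in ECiKO 2. The latter came from 129 of 195 cells and was 3145 CPM without the 2 highest, against 56.7 CPM in the 7 such cells of control 2. The class lay in different clusters there: 182 of the 195 cells of ECiKO 2 were in a shallow cluster with 0 cells of control 2, and the median cell held 778 UMIs against 21535. Cycling cells of ECiKO 2 held 1620 CPM, from 273 UMIs in 33 of 79 cells, against 43.2 CPM in the 4 such cells of control 2, with medians of 890 and 15341 UMIs. Neuroblast-like cells of GlastiKO 2 held 2960 CPM, of which 567 of 658 UMIs were in 1 cell, and 162 CPM without the 2 highest, against 85.2 CPM in the 4 such cells of control 2. Cells of another type within a cluster and free RNA cannot be told apart from these sums.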

How the results depend on the processing

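Opalin and Mal were called lower in the Klk6 state in all 14 alternatives, with log2 differences of -3.59 to -1.53 and -1.19 to -0.80. The number of members called was 6 with all libraries and 4 to 6 when 1 library was left out. In cells thinned to 1000 UMIs, an alternative with states set again from the thinned counts and fewer genes tested (2179, 115 called), it was 2. Mobp there turned to -0.0532 (edgeR adjusted p = 0.948). Over all genes, 1985 calls became 870 with DESeq2, 1205 without GlastiKO 2 and 1133 with the stricter filter (at least 500 genes, at most 10% mitochondrial UMIs). The count of members past 1.5-fold between genotypes, 0 over the class, was 1 (Opalin, ECiKO) in the Klk6 state alone, 1 in it with the unnamed cluster added, 1 in its cells of at least 2000 UMIs and 1 in the deep Klk6 cluster; these divisions were chosen after seeing the data. The Cnp share in astroglial-like cells, 55.0% in control 2, was 60.7% with the stricter filter, that of GlastiKO 2 48.8% and that of ECiKO 2 55.6%, or 57.7% in ECiKO 2 without the doublet call; the cause was not tested. In endothelial-like cells Mal ran from 0.24 to 0.54 for GlastiKO and from -0.17 to 0.12 for ECiKO and was never called. Genes called there ranged from 0 to 25 for GlastiKO and from 0 to 18 for ECiKO, both highest when the unnamed Plvap cluster was added, and from 12 to 37 between the kinds of library. With the replicate number as a replicate block, 0 members were called in either genotype comparison, against 17 and 4 genes in all. The labels do not say that a number marks a shared litter or day, and deviations of same-numbered libraries correlated at 0.098, 0.012 and 0.043 over only 2 numbers. Depth limits Cnp and the other 7 genes in endothelial-like cells, where each library holds at most 20 UMIs of each.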

Other observations

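The cell with most member UMIs among the neuroblast-like cells of GlastiKO 2 had a mixture of the 9 genes unlike that of the oligodendrocyte-like cells. It held 33145 UMIs, with 234 of Mbp, 119 of Cldn11, 112 of Cnp and 100 of Mag, but 2 of Mobp and 0 of Mog, Mal, Opalin and Ermn. It also held 100 UMIs of Tnr, 97 of Enpp6, 53 of Gpr17, 27 of Olig1 and 13 of Sox10. Of the other precursor markers looked at, Neu4 had 2 UMIs, and Bmp4 and Pdgfra had 0. Enpp6 and Gpr17 are known from oligodendrocytes that have begun to differentiate, and Pdgfra from their precursors. In these data Enpp6 was also among the leading genes of the named deep cluster with Klk6, so it did not mark that stage alone. It is 1 cell, singled out after its values were seen.

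Among clusters left unnamed, the shallow one of 404 cells in ECiKO 2, in which all 14 oligodendrocyte markers were detected, held a member sum of 25166 CPM, with Mal at 4794 CPM and Opalin at 378 CPM (138 UMIs). The named deep cluster with Klk6 held Mal at 5657, 5600 and 4319 CPM and Opalin at 656, 625 and 372 CPM in control 2, GlastiKO 2 and ECiKO 2.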
